A study of Mus musculus with 6 samples.

Results

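Transcripts of the DNA replication machinery and of deoxynucleotide supply were examined in whole livers of Fah-deficient mice, with NTBC therapy maintained or withdrawn. The set held 36 genes, chosen by name, and all 36 were measured among the 18193 genes that the array annotation links to at least 1 probe set carrying a single gene symbol. Where a gene had several probe sets, the brightest on average (in log2, over all 6 livers) stood for it. A probe set is a group of short probes on the array that reads 1 stretch of transcript, usually near its end, and 27 of the 36 genes had more than 1.

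FRG mice are deficient in Rag2, Il2rg and Fah, of which Fah completes the breakdown of tyrosine, and were bred on a C57Bl/6J background. They serve as a model of hereditary tyrosinemia type 1 in which T, B and NK cells are missing while macrophages and the other resident cells of the liver remain. NTBC inhibits Hpd, which acts earlier in the same pathway, and so prevents the build-up of toxic tyrosine metabolites. All mice were males aged 12 weeks, kept on chow low in tyrosine and phenylalanine. The 3 FRG+NTBC mice drank water with 16 mg/L NTBC and dextrose throughout, and the 3 FRG-7dNTBC mice went without NTBC for the last 7 days. Total RNA of each liver was read on 1 array per mouse, and the mice are separate animals of each group.

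Replication starts at origins, which the origin recognition complex marks and on which Cdc6 and Cdt1 load the ring-shaped Mcm2 to Mcm7 helicase, a step held in check by geminin (Gmnn). Mcm10, Cdc45 and the GINS complex then convert the loaded helicase into its active form, and polymerase alpha with primase lays down primers. The sliding clamp Pcna, its loader (Rfc1 to Rfc5), the polymerases delta and epsilon, the single-strand binding complex Rpa, the flap nuclease Fen1 and the ligase Lig1 carry out synthesis, and these same proteins fill gaps during excision and mismatch repair. Ribonucleotide reductase (Rrm1, Rrm2), thymidine kinase (Tk1), thymidylate synthase (Tyms) and dUTPase (Dut) provide and clean the precursors. In the resting adult liver most hepatocytes are out of the cell cycle, and the genes of this machinery are classically switched on together by E2F factors when hepatocytes divide.

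The labels were first set against marker genes. The hepatocyte transcripts Alb, Ttr and Apoa1 lay between 21174 and 27939 intensity units in all 6 livers, close to the top of the scale (values of single livers are given here in the order of the replicate numbers in the labels). Of the other hepatocyte markers measured, Hnf4a and Cps1 were lower in FRG-7dNTBC livers (adjusted p = 0.0225 and 0.0103), and Apob did not pass. Fah, the gene deleted in both groups, read 215, 182 and 197 in FRG+NTBC livers and 119, 81 and 86.8 in FRG-7dNTBC livers, a difference of -1.07 (adjusted p = 0.00258). Both groups carry the deletion, and where the probes lie relative to the deleted part is not given in the sources used here, so these values do not check the labels. The lymphocyte markers Cd3e, Cd3g, Cd79a and Ncr1 summed to between 95.3 and 111 units in all livers, and none passed the test.

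In the FRG-7dNTBC livers the 36 genes did not move as a block. Pcna rose 11.6-fold, and Rfc3, Mcm4 and Rpa2 rose by between 2.01-fold and 3.07-fold, whereas Mcm10 and Tk1 fell more than 7-fold and Rfc5 fell 2.62-fold. In total 8 genes were higher (Orc6, Cdt1, Mcm2, Mcm4, Pcna, Rfc3, Rpa2 and Rrm1), 5 were lower (Mcm10, Rfc5, Pold1, Pole and Tk1) and 23 did not pass the test. The test was limma's moderated comparison across all 45037 probe sets, with a Benjamini-Hochberg adjusted p under 0.05. By the same test 17.4% of all genes were higher and 12.7% were lower, 30.1% in either direction, so that the 13 of 36 lay near the share of genes at large. With a change of at least 2-fold as well, 4 members were higher, where 8.94% of all genes were, and 3 were lower, where 4.94% of all genes were. The 3 values of each group did not overlap for 15 members, 9 of them higher and 6 lower, while 46.2% of all genes had groups that did not overlap. The median difference in log2 intensity was 0.21 over the members and -0.05 over all genes.

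**Figure D1:**
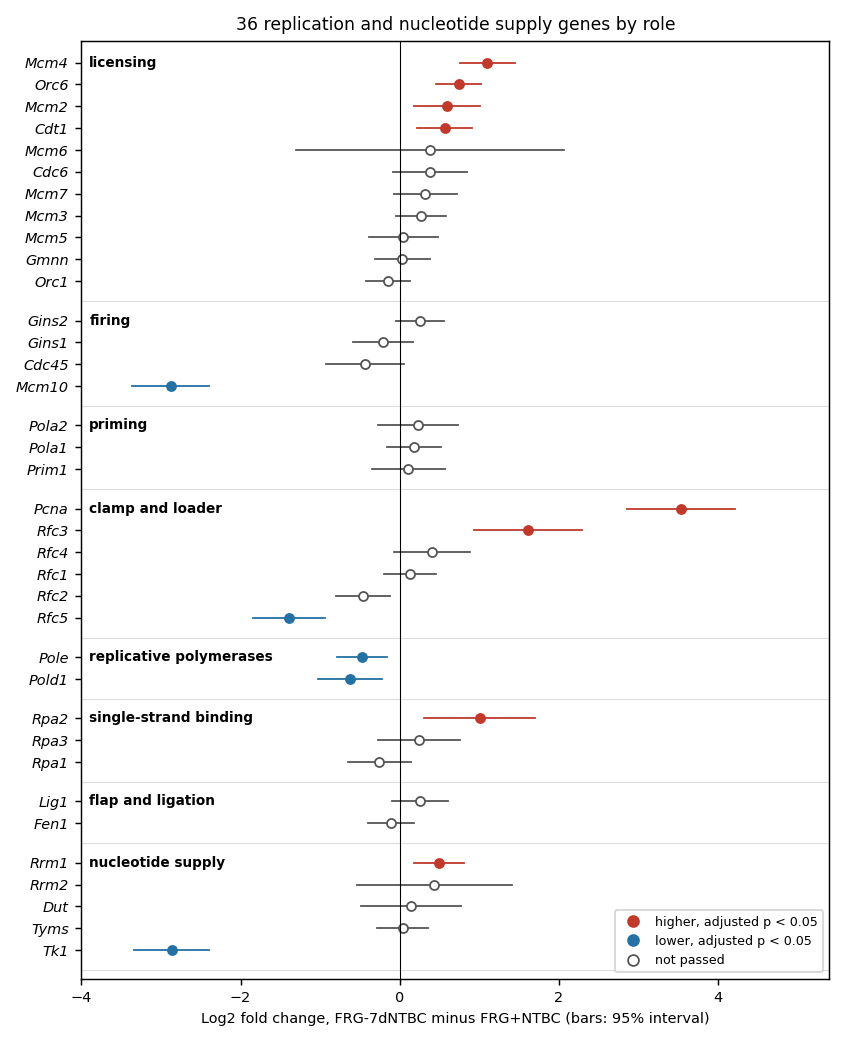
Difference in log2 intensity between FRG-7dNTBC and FRG+NTBC livers for each of the 36 genes, in order of role, with bars for the 95% confidence interval of the limma fit (n = 3 mice per group). Filled points mark the 8 genes that were higher (red) and the 5 that were lower (blue), and open points the 23 that did not pass. Pcna at 3.53 stands farthest to the right and Mcm10 at -2.88 and Tk1 at -2.87 farthest to the left.

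Of the 11 licensing genes 4 rose and none fell, beside 17.4% and 12.7% of all genes. Orc6, the smallest subunit of the origin recognition complex, read 59.3, 48.5 and 53.5 units in FRG+NTBC livers and 89.9, 90.5 and 88 units in FRG-7dNTBC livers. The withdrawn mice lay within 3 units of each other and above every treated mouse, a rise of 0.74 ± 0.12 on the log2 scale (SE, adjusted p = 0.00344). Orc6 had 1 probe set. Orc1, the subunit that carries ATPase activity with Orc4 and Orc5, had a difference of -0.14 ± 0.12 and did not pass. The loading factor Cdt1 read 181, 201 and 171 units with NTBC and 242, 258 and 324 units without, with no overlap and a rise of 0.57 ± 0.15 (adjusted p = 0.0246). The other probe sets of Cdt1 had differences of 0.65 (adjusted p = 0.079) and -0.07, and neither passed. Cdc6, the partner of Cdt1, was dim, at 7.61 ± 1.3 units (SD, n = 3) with NTBC and 9.94 ± 2.1 without, below the median of all probe sets. Geminin, which sequesters Cdt1, had nearly equal means, 156 ± 21.2 and 159 ± 16.6 units, with a 95% interval of the log2 difference from -0.32 to 0.38.

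Within the Mcm2 to Mcm7 helicase, Mcm4 and Mcm2 rose. Mcm4 read 46.9, 44.6 and 48.5 units with NTBC and 92.4, 122 and 89.3 units without, so the withdrawn mice were all above the treated ones, by 2.15-fold (log2 difference 1.10 ± 0.15, adjusted p = 0.00131). Its second probe set gave 1.12. Mcm2 read 206, 161 and 202 units with NTBC against 360, 260 and 247 units without (0.59 ± 0.18, adjusted p = 0.0429), and its second, dimmer probe set gave 1.49 (adjusted p = 0.00523). Mcm3, Mcm5 and Mcm7 had differences of 0.27, 0.05 and 0.32 and did not pass. Mcm6 had the widest interval of the 36 genes and is described with the single mice. Counting every probe set of the 6 helicase genes, 8 of 19 were higher and 0 of 19 lower, and the 8 belonged to 4 genes, Mcm2, Mcm3, Mcm4 and Mcm7. Over all probe sets, 14.0% were higher and 13.9% lower.

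Of the 4 firing genes Mcm10 fell, and the other three did not pass. Mcm10, which joins the helicase at activation and brings polymerase alpha to the fork, read 719, 891 and 904 units in FRG+NTBC livers and 156, 95 and 97.7 units in FRG-7dNTBC livers. The brightest withdrawn liver was thus below the dimmest treated liver by a wide margin, and the difference was -2.88 ± 0.21 (7.36-fold lower, adjusted p = 0.000103). A second probe set of Mcm10 fell by 1.43 (adjusted p = 0.000534), and the remaining one, at 9.49 units with NTBC and 8.98 without, had a difference of -0.07. Cdc45, a component of the active helicase, averaged 76.5 ± 13.5 units with NTBC and 57 ± 13.4 without, with overlap between the groups. Its other probe set moved the opposite way and passed, with a rise of 0.68 (adjusted p = 0.0377). Of the GINS subunits, Gins1 had a difference of -0.21 ± 0.16, and Gins2 one of 0.26 ± 0.13 with no overlap between groups, and neither passed. The priming genes Pola1, Pola2 and Prim1 had differences of 0.18, 0.23 and 0.11, with overlapping groups in each case, and none of the 3 passed.

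The clamp gave the largest difference of the set. Pcna read 214, 134 and 165 units in FRG+NTBC livers and 1978, 2876 and 1287 units in FRG-7dNTBC livers. Every withdrawn liver exceeded every treated one by a wide margin, and the log2 difference was 3.53 ± 0.29 (95% interval 2.85 to 4.21, adjusted p = 0.00017). The withdrawn livers also differed among themselves, with the second at more than 2 times the level of the last. Pcna had a single probe set, so no second reading of its transcript was at hand.

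Of the 5 subunits of the clamp loader, which act as 1 complex, Rfc3 rose, Rfc5 fell and the other three did not pass. Rfc3 read 45.6, 22.3 and 25.8 units with NTBC and 103, 111 and 66.7 units without (1.62 ± 0.29, adjusted p = 0.00497), and its other probe set, with a rise of 0.63, missed the threshold (adjusted p = 0.0503). Rfc5 read 133, 182 and 212 units with NTBC and 70, 72.5 and 56.5 units without, and here every withdrawn liver lay below every treated one (-1.39 ± 0.19, adjusted p = 0.00145). This rests on the 1 probe set of Rfc5. Rfc2 also had no overlap, at 294, 331 and 296 units against 239, 249 and 186 units, but its difference of -0.46 ± 0.15 missed the threshold (adjusted p = 0.0519). Both other probe sets of Rfc2 fell, by 0.70 and 0.74. Rfc1, the large subunit, had a difference of 0.13 ± 0.14 and Rfc4 one of 0.41 ± 0.21, and neither passed.

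Both replicative polymerases had lower catalytic subunit transcripts. Pold1 of polymerase delta read 85, 64.9 and 58.9 units with NTBC and 43.1, 39.7 and 51.3 units without (-0.63 ± 0.17, adjusted p = 0.0297). Its second, dimmer probe set did not follow, with a difference of 0.16. Pole of polymerase epsilon, with 1 probe set, read 49.9, 41.9 and 38.3 units with NTBC and 30.5, 32.2 and 30.7 units without (-0.47 ± 0.14, adjusted p = 0.035). The groups did not overlap for either gene but neither call held in every fit of the data.

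Of the single-strand binding complex, Rpa2 rose. It read 35, 33.1 and 36.5 units with NTBC and 56.5, 121 and 50.2 units without (1.01 ± 0.30, adjusted p = 0.0405), and the second withdrawn liver stood far above the other two. On its other, dimmer probe set the groups overlapped, and the difference of 1.13 did not pass (adjusted p = 0.197). Rpa1 and Rpa3 had differences of -0.26 and 0.24 with overlapping groups. Fen1, which trims the flaps of Okazaki fragments, averaged 540 ± 27.5 units with NTBC and 503 ± 44.4 without on its brightest probe set, a difference of -0.11 ± 0.13. Lig1, which seals the fragments, had a difference of 0.26 ± 0.15. Neither passed on these probe sets.

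Among the nucleotide supply genes, Tk1 fell and Rrm1 rose. Tk1, the salvage kinase of thymidine, read 286, 175 and 229 units in FRG+NTBC livers and 35.5, 32.2 and 25.8 units in FRG-7dNTBC livers. The groups were far apart, with a difference of -2.87 ± 0.21 (7.29-fold lower, adjusted p = 9.5e-05). Like Pcna, Tk1 had 1 probe set and so no second reading. Rrm1, the large subunit of ribonucleotide reductase, read 94.3, 93 and 118 units with NTBC and 137, 150 and 141 units without (0.50 ± 0.14, adjusted p = 0.0292). The other probe sets of Rrm1 had differences of 0.41 (adjusted p = 0.197) and -0.06, and neither passed. The small subunit Rrm2 scattered in the treated livers, at 103, 28.8 and 65.8 units, and its difference of 0.44 ± 0.42 did not pass. Dut had a difference of 0.14 ± 0.27. Tyms was dim in both groups, at 10.2 ± 0.816 and 10.6 ± 1.32 units, below the median of all probe sets, with a difference of 0.04 ± 0.14.

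**Figure D2:**
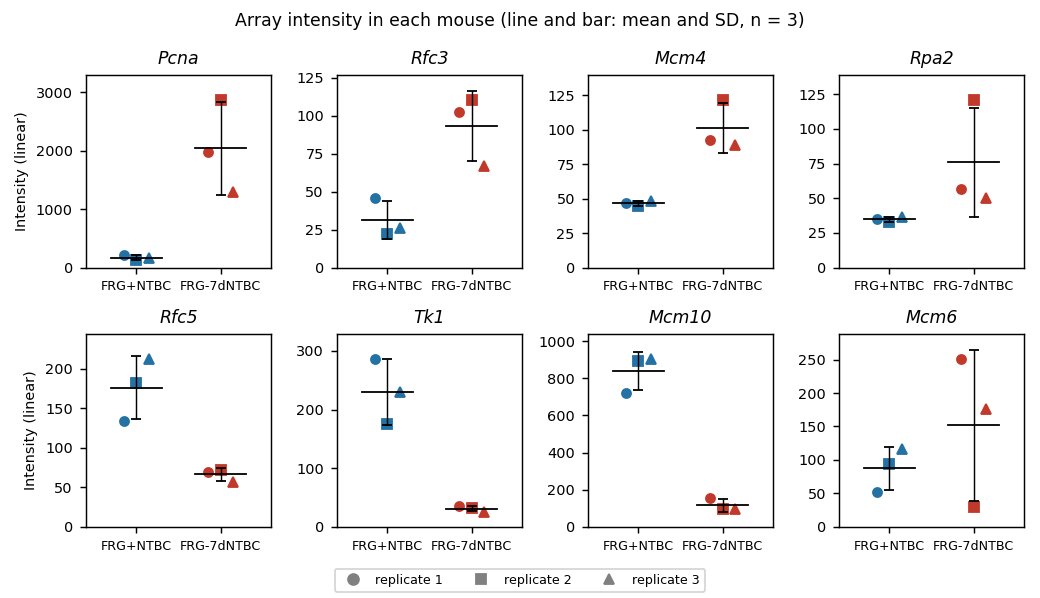
Intensity (linear scale, from 0) of 8 genes in each of the 6 livers, 1 panel per gene, with points for single mice and a line and bar for the group mean and SD (n = 3). In Pcna, Rfc3, Mcm4, Rpa2, Rfc5, Tk1 and Mcm10 the 2 groups are separate, while in Mcm6 the second FRG-7dNTBC liver lies below all treated livers and the other two above them.

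The members used in repair as well as in replication (Pcna, the 5 loader subunits, Pold1, Pole, the 3 Rpa subunits, Fen1 and Lig1) were set against the 15 that act at origins. Of the 13 shared with repair, 3 were higher and 3 lower, and their log2 differences ran from -1.39 to 3.53 around a median of 0.13. Of the 15 origin genes, 4 were higher and 1 lower, with a range from -2.88 to 1.10 around a median of 0.27. The shares to set beside these counts are 17.4% higher and 12.7% lower over all genes. The difference between the medians, repair-shared minus origin, was -0.14. Taken in single mice, relative to the FRG+NTBC mean, the same quantity was -0.053, -0.077 and -0.26 in the withdrawn mice (SD 0.11). In the treated mice it was 0.12, -0.020 and -0.077. The difference between the group medians was -0.033 with the probe sets of each gene averaged, -0.053 without multi-transcript probe sets and -0.31 after quantile normalisation. Members are not replicates of a class, so no test was made. The 3 repair-shared genes that rose did so by at least 2-fold, which of the origin genes held for Mcm4 alone. Over all genes, 8.94% passed as higher by at least 2-fold.

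Promoters were compared because E2F binding is the textbook link between these genes. The sequences below are from RefSeq on build GRCm38.p6 and give the 250 bases before the annotated start for members that rose (Pcna, Rfc3), that fell (Mcm10, Tk1, Rfc5) or that differed most among the withdrawn mice (Mcm6). All 6 genes lie on the minus strand, and each sequence reads 5′ to 3′ in the direction of the gene. Capitals mark the E2F-type letters TTTCCCGC, TTTGGCGC or TTTCGCGC and the CCAAT box, on either strand (CCAAT reads ATTGG on the other strand).
Pcna, chr2:132253181-132253430: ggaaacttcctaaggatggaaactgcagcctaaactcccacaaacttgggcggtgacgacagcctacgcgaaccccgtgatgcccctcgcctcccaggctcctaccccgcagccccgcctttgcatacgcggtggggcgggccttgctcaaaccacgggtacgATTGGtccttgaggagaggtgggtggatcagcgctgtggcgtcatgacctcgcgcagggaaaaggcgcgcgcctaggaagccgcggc
Rfc3, chr5:151651209-151651458: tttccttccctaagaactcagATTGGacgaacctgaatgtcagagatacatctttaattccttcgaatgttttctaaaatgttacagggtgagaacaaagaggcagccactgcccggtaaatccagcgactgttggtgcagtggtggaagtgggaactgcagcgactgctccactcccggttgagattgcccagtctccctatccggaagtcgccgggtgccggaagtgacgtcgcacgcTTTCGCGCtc
Mcm6, chr1:128359706-128359955: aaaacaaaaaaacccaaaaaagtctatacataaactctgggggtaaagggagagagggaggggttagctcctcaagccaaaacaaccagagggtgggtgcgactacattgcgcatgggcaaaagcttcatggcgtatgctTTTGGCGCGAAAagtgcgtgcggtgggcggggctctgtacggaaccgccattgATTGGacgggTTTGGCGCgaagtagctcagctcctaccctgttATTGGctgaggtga
Mcm10, chr2:5012792-5013041: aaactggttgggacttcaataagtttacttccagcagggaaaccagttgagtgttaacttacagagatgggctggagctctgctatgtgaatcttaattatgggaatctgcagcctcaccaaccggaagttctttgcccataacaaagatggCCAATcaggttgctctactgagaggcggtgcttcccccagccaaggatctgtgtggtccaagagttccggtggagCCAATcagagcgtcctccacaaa
Tk1, chr11:117826015-117826264: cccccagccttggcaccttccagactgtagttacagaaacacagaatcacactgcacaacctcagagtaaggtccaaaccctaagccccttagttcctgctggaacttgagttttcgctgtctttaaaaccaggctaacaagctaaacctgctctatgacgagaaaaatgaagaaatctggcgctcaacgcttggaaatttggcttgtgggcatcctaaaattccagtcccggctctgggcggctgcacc
Rfc5, chr5:117389024-117389273: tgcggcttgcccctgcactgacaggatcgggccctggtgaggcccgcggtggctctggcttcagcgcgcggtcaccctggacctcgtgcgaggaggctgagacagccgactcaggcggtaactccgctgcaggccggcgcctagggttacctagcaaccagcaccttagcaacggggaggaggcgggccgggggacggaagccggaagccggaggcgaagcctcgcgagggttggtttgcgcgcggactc

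The Pcna sequence held 1 CCAAT box, 87 bases before the start, and none of the E2F-type letters. Rfc3 held E2F-type letters 10 bases and a CCAAT box 229 bases before its start. Mcm6 held 3 E2F-type matches, at 110, 106 and 47 bases before the start, the first 2 of which overlap, and CCAAT boxes at 57 and 14 bases. Of the genes that fell, Mcm10 held CCAAT boxes at 98 and 23 bases, and Tk1 and Rfc5 held neither kind of letters. The start used for Tk1 lies inside the annotated span of the gene, which reaches to position 117826087 of chromosome 11. Over windows of 300 bases, from 250 before to 50 after the start, the E2F-type letters were found in 11 of the 30 members with a window (36.7%) and in 573 of 27025 genes with a window (2.12%). By class they were found in 7 of 11 origin genes, 3 of 11 repair-shared genes, 1 of 3 priming genes and none of the 5 nucleotide supply genes. Of the 11 members that held them, 3 passed the expression test (Cdt1, Rfc3 and Pold1), and of the 19 that did not, 8 passed. Of all genes measured, 30.1% passed it in either direction, and whether the letters matter for the call was not tested. The CCAAT box was found in 19 of 30 members (63.3%) and in 41.1% of all genes with a window. These are matches of letters, and no binding was measured. Gmnn, Mcm4, Gins1, Gins2, Rfc2 and Pole had no window in the table used.

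For several members the call depended on which probe set stood for the gene. The 36 genes had 79 probe sets, of which 18 were higher and 10 lower, beside 14.0% and 13.9% of all probe sets. For 6 members that did not pass, another probe set was higher, and for 3 another was lower, while no member had passing probe sets in opposite directions. Fen1 differed most, since its dimmer probe set read 22.5, 27.9 and 38.6 units with NTBC and 111, 177 and 88.7 units without, a rise of 2.06 (adjusted p = 0.00137). Rfc4 read 19.2, 15.1 and 18.9 units with NTBC and 40.5, 54.6 and 42.2 units without on its other probe set, a rise of 1.36 (adjusted p = 0.000761). Rrm2 rose by 1.10 (adjusted p = 0.00289) on 1 of its 2 other probe sets. Mcm3 rose by 1.07 and 0.80 on 2 of its 4 others, and Mcm7 by 0.95 and 0.84 on 2 of its 3 others. In each of these 5 genes the probe set that stood for the gene carries the suffix for probes that can also match other transcripts (_s_at or _x_at), as did 9 of the 36. Whether those probes read another transcript was not tested. In the other direction Dut fell by 0.68 and Pola2 by 0.62 on another probe set. Counting any probe set, 14 members had a rise, 8 had a fall, and 14 had no probe set that passed. A gene with several probe sets has more occasions to pass, and the same count was not made over all genes. These counts therefore cannot be set against the shares of all genes.

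**Figure D3:**
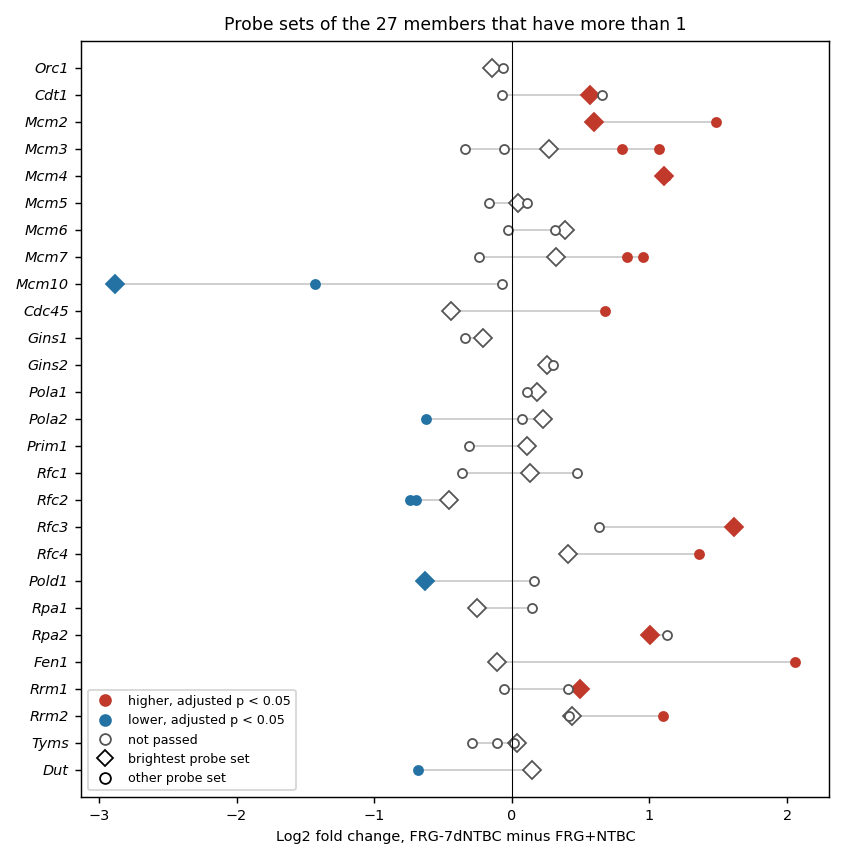
Difference in log2 intensity (FRG-7dNTBC minus FRG+NTBC) of every probe set of the 27 genes that have more than 1, 1 row per gene, with a diamond for the brightest probe set, which stands for the gene, and filled colour for those that passed. Fen1 shows the widest gap among the genes that did not pass, with -0.11 on the brightest probe set and 2.06 on the other.

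The FRG-7dNTBC livers were not alike, and the second of them stood apart in some genes. Mcm6 read 52.4, 94.3 and 116 units with NTBC and 251, 29 and 176 units without, so that the second withdrawn liver was the lowest of all 6 and the other two were the highest. Its difference of 0.39 ± 0.73 did not pass (95% interval -1.30 to 2.07), and without that mouse it was 1.34 (adjusted p = 0.0204). That mouse was singled out by these same values, so the pass without it is no independent result. A second probe set of Mcm6 gave 118, 10.2 and 156 units in the same livers. For Pcna, Rfc3, Mcm4 and Rpa2 the same mouse was the highest of the withdrawn livers. Over the 36 members it was the highest of the 3 withdrawn livers for 12 and the lowest for 14, or 33.3% and 38.9%, near the shares of 34.7% and 37.4% over all genes. Without it, 7 members were higher and 4 lower, with Mcm2, Rrm1, Pold1 and Pole lost and Mcm6 and Rfc2 gained.

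Other genes for which this mouse was low were looked at after their values were seen. The proliferation marker Mki67 read 53.8, 19.4 and 122 units in the withdrawn livers, the anaphase activator Cdc20 170, 41.6 and 133, and cyclin A2 (Ccna2) 62.7, 36 and 118. Of the 19 mitosis markers this mouse was the lowest of the withdrawn livers for 16 and the highest for 2, Aurka and Kif20a. Among markers of other cells, the macrophage receptor Csf1r read 1370, 530 and 1978 units and the collagen Col3a1 1734, 156 and 1924. The 8 macrophage markers together ran from 1595 to 2208 units in FRG+NTBC livers and read 3377, 1927 and 4621 units in FRG-7dNTBC livers, with 5 of 8 higher, among them Cd68, Cd5l and Vsig4. The 6 stellate cell markers ran from 2491 to 3867 units with NTBC and read 5249, 2545 and 5267 units without, with 1 of 6 higher. The 6 endothelial markers ran from 1119 to 1670 units with NTBC and from 1778 to 2191 without, and 2 of them were higher. The 6 hepatocyte markers ran from 101520 to 103994 units with NTBC and from 93527 to 98696 without, with Hnf4a and Cps1 lower. The erythroid markers ran from 806 to 1018 units with NTBC and from 348 to 434 without, but this rested on Alas2, which alone read 588, 635 and 832 units with NTBC and 212, 258 and 175 without, and none of the other 4 passed. No cholangiocyte or neutrophil marker passed. The second withdrawn mouse was the lowest withdrawn liver for 6 of 8 macrophage, 6 of 6 stellate cell and 5 of 6 endothelial markers. It was also the lowest for 5 of 5 cholangiocyte and 4 of 5 neutrophil markers. For hepatocyte, lymphocyte and erythroid markers it was the lowest for 3 of 6, 1 of 4 and 1 of 5. The part of these cells in the results for the replication genes was not tested, and in whole liver fewer cells of a type and less RNA per cell cannot be told apart.

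**Figure D4:**
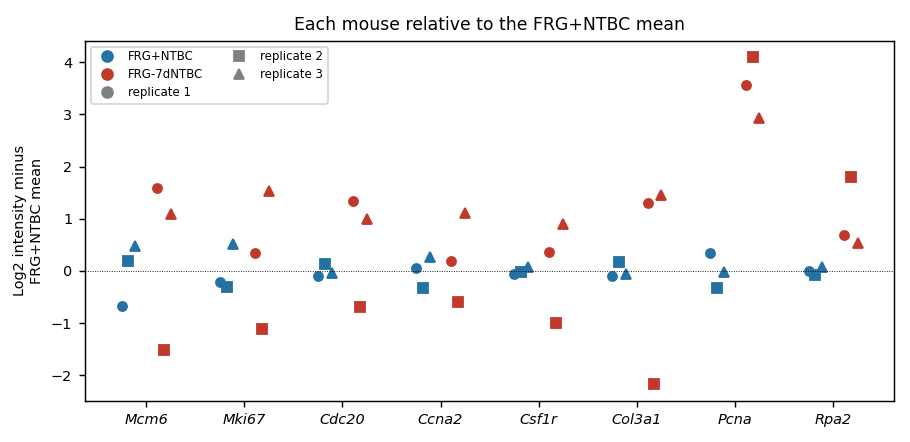
Log2 intensity of each of the 6 livers minus the mean of the FRG+NTBC livers for Mcm6, Mki67, Cdc20, Ccna2, Csf1r, Col3a1, Pcna and Rpa2, with blue for FRG+NTBC, red for FRG-7dNTBC and a symbol per replicate number. Of the withdrawn livers the second lies lowest for the first 6 genes and highest for Pcna and Rpa2.

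The neighbours of these genes in the same pathways were counted from lists of genes, in the same fit. The share of all genes to set beside each count is again 17.4% higher and 12.7% lower. Of 35 other replication genes measured, 7 were higher and 3 lower, shares near those of all genes. Orc4 and Dbf4 led them. Orc4, a core subunit of the origin recognition complex, read 109, 97.7 and 99.7 units with NTBC and 380, 446 and 404 units without, and was thus 4.01-fold higher (adjusted p = 5.51e-05). Dbf4, the activating subunit of the kinase that fires origins, read 54.6, 65.3 and 56.9 units with NTBC and 186, 201 and 223 units without, a rise of 1.79 (adjusted p = 0.000109). Pole4, an accessory subunit of polymerase epsilon, rose by 1.55, and Mcmbp, which binds the helicase subunits, had a difference of -1.50. Uhrf1, which carries DNA methylation through replication, was dim and had a difference of 0.02.

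Of 28 other nucleotide metabolism genes measured, 13 were higher and 4 lower. Ctps and Ctps2, both CTP synthases, rose by 2.56 and 1.83. Ctps read 115, 144 and 160 units with NTBC and 709, 771 and 989 units without. Cda, which deaminates cytidine, rose by 1.88, and Prps1, which makes the activated ribose for purines and pyrimidines, by 1.38. Rrm2b, the ribonucleotide reductase subunit that serves cells outside division, read 70, 59.3 and 78.2 units with NTBC and 122, 158 and 155 units without (1.07 ± 0.16, adjusted p = 0.00207). Rrm2 gave 0.44 ± 0.42 on its brightest probe set and 1.10 on another.

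Of the 23 genes of the E2F and pocket protein circuit, 6 were higher and 2 lower. Cdkn1a, the inhibitor of cyclin-dependent kinases that also binds Pcna, read 74.5, 99.7 and 132 units with NTBC and 3040, 3327 and 3902 units without, a difference of 5.10 ± 0.21 (adjusted p = 1.29e-05). Rbl1, a pocket protein that holds E2F factors in check, rose by 1.90, and Tfdp1, their dimer partner, went from 205 ± 41.3 to 405 ± 28 units (adjusted p = 0.00291). E2f8, a repressor of the family, had a difference of -1.58 (adjusted p = 0.0011). E2f1 read 63.6, 66.3 and 72 units with NTBC and 53.5, 53.5 and 57.3 units without, with no overlap, but its difference of -0.30 did not pass (adjusted p = 0.0998).

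Of 19 mitosis markers, 2 were higher and 1 lower. Ccnb2 and the kinase Aurka rose by 1.10 and 0.92 and the spindle factor Tpx2 had a difference of -0.39, while Top2a (0.66 ± 0.29) and Mki67 (0.25 ± 0.58) did not pass. Ccnb2 and Aurka were dim, at means of 15.9 and 22.0 units with NTBC and 34.2 and 42.1 without. Both lay below the median of all probe sets. Without the second withdrawn mouse 7 mitosis markers were higher and none lower, in a fit where 5779 of 45037 probe sets were higher and 4941 lower. That mouse was the lowest withdrawn liver for 16 of the 19 markers, so leaving it out raises the differences of those 16 by construction. Of 30 DNA repair genes outside replication, 9 were higher and 4 lower. Rad18, a ubiquitin ligase that modifies Pcna at stalled forks, rose by 2.26, the ligase Lig4 of end joining by 2.05 and the helicase Ercc3 of excision repair by 1.52. Ung, which removes uracil from DNA, had a difference of -1.82, and the damage sensor Ddb2 one of 0.12 ± 0.22. The medians of the log2 difference were 0.15 for the other replication genes, 0.52 for nucleotide metabolism, 0.22 for the E2F circuit, 0.22 for mitosis and 0.08 for repair, beside -0.05 for all genes.

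**Figure D5:**
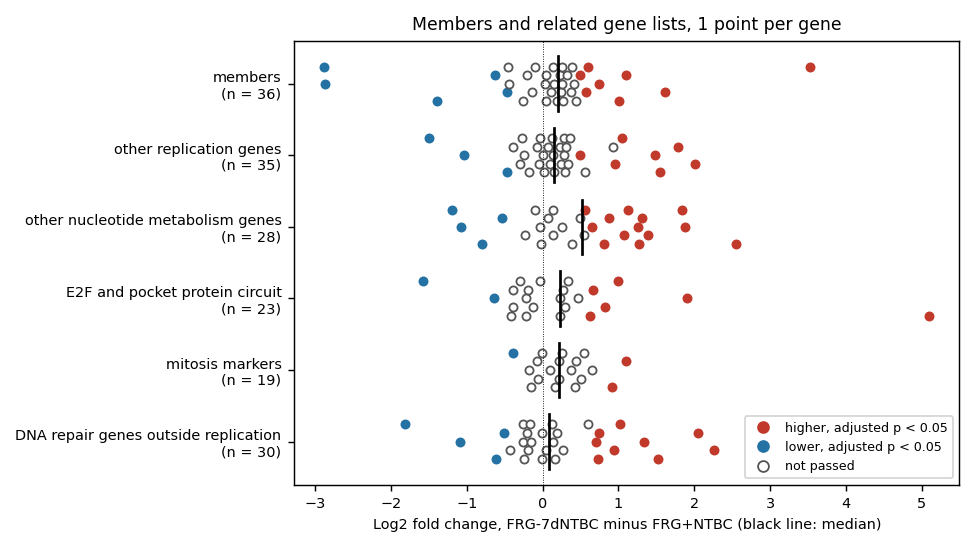
Difference in log2 intensity (FRG-7dNTBC minus FRG+NTBC) of every measured gene of the member set and of 5 related lists, 1 row per list, with colour for genes that passed the test and a line at the median of the list. The genes spread to both sides of 0 in each list, and Cdkn1a at 5.10 and Pcna at 3.53 are the points farthest to the right.

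The 6 members that kept the same call in all 15 alternative fits (another scaling, moderation, weighting or choice of probe sets, a replicate term, or 1 mouse left out) were Pcna, Mcm4, Orc6, Mcm10, Tk1 and Rfc5. A further 16 members passed in none of them. Of the 6 that kept their call, Pcna, Orc6, Rfc5 and Tk1 had 1 probe set each. Another choice of probe sets could therefore not change the values of these genes. Cdt1, Mcm2, Rfc3, Rpa2, Rrm1, Pold1 and Pole each lost the call in at least 1 fit, and all 7 lost it when the variance was taken from each probe set alone. Leaving out 1 mouse at a time left from 4 members higher (without the first FRG+NTBC liver) to 7 (without the second FRG-7dNTBC liver) and from 3 to 5 lower. Over these 6 fits the difference of Rpa2 ran from 0.61, without the second FRG-7dNTBC liver, to 1.25, and that of Rfc3 from 1.41 to 1.92. The call of Rpa2 was lost without any 1 of the treated livers or the first withdrawn one, with adjusted p between 0.0583 and 0.121, and that of Mcm2 without any liver but the last withdrawn one (0.0502 to 0.147). Rrm1 was lost without any liver but the last treated one (0.0504 to 0.106), and Cdt1 without the first or last treated or the last withdrawn liver (0.0549 to 0.0787). Of the genes that fell, Pole was lost without any liver but the last treated one (0.0584 to 0.104), and Pold1 in 4 of the 6 fits (0.0716 to 0.0929). The number of arrays limits the precision, and an exact permutation test of 3 against 3 mice cannot give a two-sided p below 0.1.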

How the data were processed

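Expression was measured with Affymetrix mouse genome arrays, 1 per liver, in 3 FRG+NTBC and 3 FRG-7dNTBC mice. Per the study's methods, the authors made the deposited intensity values by Robust Multiarray Analysis, which usually corrects background, normalises probes by quantiles and sums them by median polish. Transcriptome Analysis Console is the tool listed in the submitters' processing notes. The intensities ran from 3.84 to 29532 on a linear scale. At the level of probe sets the arrays were not equal in distribution, with medians of 35.3 to 36.5 with NTBC and 33.1 to 34.3 without, and 75th percentiles of 131 to 137 and 142 to 151. The genome build used for the array was not given in the sources used here, and files hold no scan dates or slides.

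The log2 of the values was fitted in R 4.3.3 with limma 3.58.1 (lmFit, eBayes) over all 45037 probe sets, with no covariate and Benjamini-Hochberg adjustment over all of them. Folds are ratios of geometric means, means ± SD are of intensities, and differences ± SE are in log2. Probe sets with 1 symbol (34945) named 18193 genes, and those with several (932) or no symbol (9160) named none. Sums of marker intensities are dominated by the bright probe sets. The fit was tested on simulated data with known changes.

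The 36 members and all lists were chosen with earlier results of these data known. All members may be named, and of each list up to 4 genes that passed with the largest difference plus its best known members. Outside this rule, Cdc20, Ccna2 and Kif20a were picked with their values in view. The alternatives tried were 75th percentile scaling, quantile normalisation, array weights, other moderation, filters on dim or multi-transcript probe sets, the mean of a gene's probe sets, a replicate block and leaving out each mouse.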

Additional observations from a re-analysis of the deposited data

How the results depend on the processing

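The direction of the 13 called members was kept in all 15 alternative fits, except for Pold1, whose difference was 0.16 without the multi-transcript probe sets. Scaling each array to its 75th percentile shifted the median of all probe sets by -0.130. Relative to that shift, 5 members, 2 origin genes and 0 nucleotide supply genes were then higher, and 9669 probe sets, 5 other replication genes and 4 E2F circuit genes lower. Quantile normalisation gave 5 members, 2 origin genes and 0 nucleotide supply genes higher, 0 mitosis markers lower, and -0.31 for the difference between the repair-shared and origin medians. Without dim probe sets 0 of the 8 mitosis markers left were higher. With trend and robust moderation 0 nucleotide supply genes were higher and 0 mitosis markers lower. Without moderation 3141 probe sets, 3 members, 1 repair-shared gene, 2 origin genes, 0 nucleotide supply genes, 4 other replication genes, 6 nucleotide metabolism genes, 0 mitosis markers and 4 repair genes were higher, and 3336 probe sets, 3 members and 1 gene each of the repair-shared, nucleotide metabolism, E2F circuit and repair lists lower. Array weights gave 11 other replication genes and 6 mitosis markers higher and 5 E2F circuit genes lower. Without multi-transcript probe sets 5 repair-shared and 2 nucleotide supply genes were higher, with members gained (Mcm7, Rfc4, Fen1 and Rrm2). With probe sets of a gene averaged, 3173 of 18193 genes, 12 other replication genes and 1 mitosis marker were higher and 2357 genes lower. At 2-fold or more as well, 3427 probe sets, 4 members, 1 origin gene, 0 nucleotide supply genes, 2 E2F circuit genes, 1 mitosis marker and 5 repair genes were higher, and 2305 probe sets, 3 members, 1 repair-shared gene, 2 nucleotide metabolism genes, 1 E2F circuit gene, 0 mitosis markers and 2 repair genes lower. The cause of these moves was not tested.

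The labels do not say whether equal replicate numbers pair the mice. The deviations of mice with the same number correlated at 0.106, 0.034 and -0.156. These values show no strong shared deviation, but with 3 mice per group they cannot settle whether the mice were paired. With the replicate number as a block 0 nucleotide supply genes were higher, and 3 members, 1 repair-shared gene, 1 E2F circuit gene and 0 mitosis markers lower, with the calls of Cdt1, Rrm1, Pold1 and Pole lost.

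Leaving out each mouse in turn gave 4390 to 6815 probe sets higher and 3864 to 6400 lower. Members ran from 4 to 7 higher and 3 to 5 lower, origin genes from 2 to 4 higher, repair-shared genes from 1 to 3 lower, nucleotide supply genes from 0 to 1 higher, nucleotide metabolism genes from 2 to 4 lower, E2F circuit genes from 1 to 2 lower, repair genes from 2 to 4 lower and mitosis markers from 2 to 7 higher and 0 to 1 lower. The difference between the medians ran from -0.22 to -0.06.

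Signs also turned for members that did not pass. The 75th percentile scaling moves all probe sets alike, so that any difference between 0 and 0.130 turns by construction, and the log2 difference was -0.097 for Gmnn, -0.083 for Mcm5, -0.020 for Prim1 and -0.090 for Tyms. With quantile normalisation it was -0.11 for Gmnn and -0.036 for Rfc1. Without multi-transcript probe sets it was -0.053 for Mcm3 and 2.06 for Fen1. With probe sets averaged it was -0.0024 for Mcm5, 0.12 for Cdc45, -0.11 for Pola2, -0.10 for Prim1, 0.98 for Fen1, -0.085 for Tyms and -0.27 for Dut. Without a mouse the lowest and highest values were -0.075 and 0.24 for Mcm5, -0.077 and 0.37 for Dut, -0.085 and 0.12 for Gmnn, -0.068 and 0.85 for Rrm2, -0.059 and 0.11 for Tyms, -0.22 and 1.34 for Mcm6 and -0.11 and 0.29 for Prim1. Other probe sets gave 0.68 for Cdc45, -0.070 for Cdt1, -0.68 for Dut, 2.06 for Fen1, -0.34 and -0.053 for Mcm3, -0.16 for Mcm5, -0.030 for Mcm6, -0.24 for Mcm7, -0.62 for Pola2, 0.16 for Pold1, -0.31 for Prim1, -0.36 for Rfc1, 0.15 for Rpa1, -0.059 for Rrm1 and -0.10 and -0.29 for Tyms.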
